A study of Mus musculus with 9 samples.

Results

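The genes described here make, take up, store and export cholesterol in basal keratinocytes of mouse footpad skin. They are 30 genes, picked by symbol from the 22399 genes of the deposited expression table, and they are a selection from the pathway rather than all of it. Of these, 18 encode enzymes of cholesterol synthesis, 4 encode SREBP2 and the proteins that hold or release it, 4 serve uptake and delivery inside the cell, and 4 serve efflux, storage and sterol sensing. The 9 RNA-seq libraries came from wild-type (WT) C57BL/6 mice, 3 libraries in each of 3 groups. Control mice were fed normally and sampled at 5 months of age, high-fat-diet (HFD) mice at the same 5 months, and aged mice, for which the labels name no diet, at 24 months. How long the HFD was fed is not given in the sources used here. Footpad epidermis was dissociated with trypsin, and interfollicular basal cells were sorted as positive for CD49f (integrin alpha 6, carried by cells on the basement membrane) and negative for CD34 (a hair follicle stem cell marker).

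Cells build cholesterol from acetyl-CoA through mevalonate, isoprenoid diphosphates, squalene and lanosterol. The transcription factor SREBP2 switches these enzymes on: it is held in the endoplasmic reticulum by SCAP and the INSIG proteins while sterol is plentiful, and is carried to the Golgi and cut free when sterol falls. The opposite arm is run by the liver X receptors, which bind oxysterols and raise the exporters ABCA1 and ABCG1. In epidermis, cholesterol is among the main lipids of the barrier, and the tissue makes much of it itself.

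Because SREBP2 acts on promoters together with the general factor NF-Y, the promoters of 5 members that the results turn on are shown first. Each sequence runs 5′ to 3′ along its gene, from 250 bases before to 50 bases after the annotated start, and comes from RefSeq on GRCm38.p6. The intervals are chr13:119690101-119690400 (plus strand) for Hmgcs1, chr5:114444019-114444318 (plus strand) for Mvk, chr1:169969156-169969455 (minus strand) for Hsd17b7, chr15:82147019-82147318 (plus strand) for Srebf2 and chr4:53159846-53160145 (minus strand) for Abca1. Capitals mark 3 motifs, searched on both strands: the sterol regulatory element core TCACNCCAC, the NF-Y box CCAAT, which reads as ATTGG on the other strand, and the E-box CACGTG, which is a special case of the general E-box CANNTG.
Hmgcs1: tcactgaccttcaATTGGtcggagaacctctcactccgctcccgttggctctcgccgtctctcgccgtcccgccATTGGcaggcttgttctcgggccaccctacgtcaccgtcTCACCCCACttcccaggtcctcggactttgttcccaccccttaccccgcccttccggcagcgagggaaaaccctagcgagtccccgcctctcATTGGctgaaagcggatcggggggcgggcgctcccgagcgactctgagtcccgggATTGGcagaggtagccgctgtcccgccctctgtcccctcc
Mvk: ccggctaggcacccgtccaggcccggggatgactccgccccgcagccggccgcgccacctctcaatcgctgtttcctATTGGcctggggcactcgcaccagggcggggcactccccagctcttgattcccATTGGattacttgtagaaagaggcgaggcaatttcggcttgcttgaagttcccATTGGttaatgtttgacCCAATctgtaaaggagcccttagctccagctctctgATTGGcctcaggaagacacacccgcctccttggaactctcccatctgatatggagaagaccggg
Hsd17b7: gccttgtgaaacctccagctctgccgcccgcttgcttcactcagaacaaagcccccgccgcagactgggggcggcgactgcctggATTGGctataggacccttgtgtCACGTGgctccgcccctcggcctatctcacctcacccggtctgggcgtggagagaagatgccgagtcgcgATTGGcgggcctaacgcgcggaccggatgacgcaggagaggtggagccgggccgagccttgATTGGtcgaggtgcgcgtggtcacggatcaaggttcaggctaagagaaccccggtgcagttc
Srebf2: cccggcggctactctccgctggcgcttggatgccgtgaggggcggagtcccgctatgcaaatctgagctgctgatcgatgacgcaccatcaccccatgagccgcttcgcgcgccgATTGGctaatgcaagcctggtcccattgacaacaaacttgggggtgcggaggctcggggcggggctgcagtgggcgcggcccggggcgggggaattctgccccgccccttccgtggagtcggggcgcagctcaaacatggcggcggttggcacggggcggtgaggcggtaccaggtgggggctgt
Abca1: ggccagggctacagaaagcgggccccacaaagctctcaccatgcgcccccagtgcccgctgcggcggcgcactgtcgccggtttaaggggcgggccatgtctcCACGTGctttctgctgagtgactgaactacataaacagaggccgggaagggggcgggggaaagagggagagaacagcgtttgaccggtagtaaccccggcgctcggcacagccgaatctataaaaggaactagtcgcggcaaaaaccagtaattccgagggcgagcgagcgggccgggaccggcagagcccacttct
The 3 synthesis enzymes shown carry repeated NF-Y boxes, 4 in Hmgcs1, 5 in Mvk and 3 in Hsd17b7, whereas Srebf2 holds 1 and Abca1 holds 0. Repeated boxes also stood in members whose expression did not pass the test described below, such as Nsdhl, Ebp and Npc2. Lss, which fell on HFD, had no repeat. The sterol element core was found in Hmgcs1 alone among these 5, starting 137 bases before the start site.

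RefSeq promoter entries were matched for 24 of the 30 members, and Fdps, Fdft1, Sqle, Stard4, Npc1 and Abcg1 had none. An NF-Y box stood in 14 of the 15 synthesis enzymes with an entry and in 5 of the 9 other members. The box was present in 37.41% of all 32851 promoters of this length, and in 43.1% of the 8365 tested genes with an entry. The sterol element core was found in 1 of the 24 members in 1.4% of the tested genes with an entry and in 1.24% of all promoters. A related form, ATCACNTGA, was in 0 of the 24, in 1.3% of those tested genes and in 0.92% of all promoters. CACGTG stood in 6 of the 24 members (Insig1, Scap, Hsd17b7, Abca1, Dhcr7 and Sc5d). It was in 12.5% of the tested genes with an entry and in 7.15% of all promoters. The general CANNTG stood in 19 of the 24, in 66.2% of those tested genes and in 72.31% of all promoters. These are matches of letters within 1 window per start site, and no binding was measured.

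Expression is given as deposited FPKM (fragments per kilobase of gene, relative to the size of the library), which sets levels per gene length. A fold change is a difference of mean log2(FPKM + 1) with its standard error (SE) from limma, a linear model fitted to all genes at once. The added 1 makes changes of low genes look smaller. A gene was called when its p, adjusted by the Benjamini-Hochberg method over 10367 genes that averaged 1 FPKM or more, was under 0.05. The labels do not state separate mice for the 3 libraries of a group, so a p reflects how much these samples scatter, which could be technical scatter. HFD and aged were compared with the same 3 control libraries, so their changes are not independent of each other. In bulk RNA, fewer cells of a type and less RNA per cell cannot be told apart.

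Estimated depth was 24.1 to 35.6 M reads per library. On the first principal component of all tested genes (31.9% of variance) the control group ran from -17.03 to -12.35 and the HFD group from 8.33 to 12.96, while aged replicates 1 and 2 lay at 7.61 and 7.08 and aged replicate 3 at -0.41, toward control. Itga6, which encodes CD49f, was at 129.7 to 137 FPKM in control, 160.2 to 167 in HFD and 114 to 129.8 in aged libraries, and Cd34 did not exceed 0.0671 FPKM in a library. Some marker sums moved with the groups: 7 sweat gland markers summed to 10.7 to 11.1 FPKM in control, 20.95 to 29.1 in HFD and 9.74 to 11.6 in aged. The 6 fibroblast markers (1 of them at 0 everywhere) summed to 4.51 to 6.64 in control, 1.498 to 2.55 in HFD and 3.48 to 4.45 in aged. The 8 spinous and granular markers summed to 4602 to 6076 in control, 5003 to 6974 in HFD and 6551 to 9013 in aged. The 7 basal markers summed to 23832 to 30570 in control, 26951 to 31612 in HFD and 23728 to 24824 in aged. For 7 Langerhans and myeloid markers, 5 of them below 1 FPKM everywhere, sums were 4.15 to 10.6 in control, 4.20 to 7.61 in HFD and 3.98 to 7.43 in aged. The 11 hair follicle and sebaceous markers, 5 of them below 1 FPKM everywhere, summed to 213.9 to 329.8 in control, 223.9 to 311 in HFD and 338 to 378 in aged. Of the sweat gland and fibroblast markers, 3 and 5 were below 1 FPKM everywhere. The highest markers were Acta2 (sweat gland, mean 7.63 FPKM), Dcn (fibroblast, 3.68), Krt10 (spinous and granular, 4639) and Krt17 (hair follicle and sebaceous, 197.8). A sum can thus follow 1 gene rather than a cell type. Whether other cell types had a part in the changes of cholesterol genes was not tested. Markers of fat cells, endothelium, melanocytes and Schwann cells were all below 1 FPKM in every library.

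On HFD, part of the synthesis enzymes and of the SREBP2 control genes fell, and genes of uptake and delivery were not called. Of 28 members that reached the expression minimum, 9 fell by limma, which is 32.1% against a background of 8.76% of all tested genes, and 0 rose (background 8.26%). The members were chosen with earlier results of these data known, so these shares are a description and not an independent test. At an unadjusted p under 0.05 there were 14 lower and 0 higher, beside 1770 lower and 1755 higher of the 10367 tested genes. Those called were the synthesis genes Hmgcs1, Mvk, Mvd, Fdps, Lss and Hsd17b7, the regulators Srebf2 and Scap, and the liver X receptor gene Nr1h2. The fold change was negative for 22 of the 28, with a median of -0.28 beside 0.01 over all tested genes, and positive for 6, up to 0.18 for Abca1. That median was -0.09 without control replicate 1 and HFD replicate 3 together. Control and HFD did not overlap, with HFD below, in 11 members (background 19.6%), and HFD was above in 0 (background 20.8%).

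In aged mice the changes were fewer and lay in both directions. Abca1 and Abcg1, the exporters, rose (2 of 28, background 4.01%) and Hmgcs1 fell (1 of 28, background 3.74%), shares of 7.14% and 3.57% that are close to background. The fold change was negative for 21 of the 28 members, with a median of -0.12 beside -0.01 over all tested genes. The aged libraries stood above all control libraries in 2 members (background 13.7%) and below them in 3 (background 14.1%). Between the altered groups, Srebf2 and Hsd17b7 were higher in aged than in HFD (2 of 28, background 3.54%) and 0 members were lower by limma (background 4.45%). At an unadjusted p under 0.05 these were 7 higher and 0 lower, beside 1219 higher and 1312 lower of the 10367 tested genes. The fold change was positive for 23 of the 28, with a median of 0.18 beside -0.00 over all tested genes. The aged libraries stood above all HFD libraries in 9 members (background 13.9%) and below them in 0 (background 15.9%). The F test over the 3 groups called Srebf2, Hsd17b7, Mvk, Hmgcs1 and Abcg1, which is 5 of 28 members beside 20.4% of all tested genes.

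**Figure D1:**
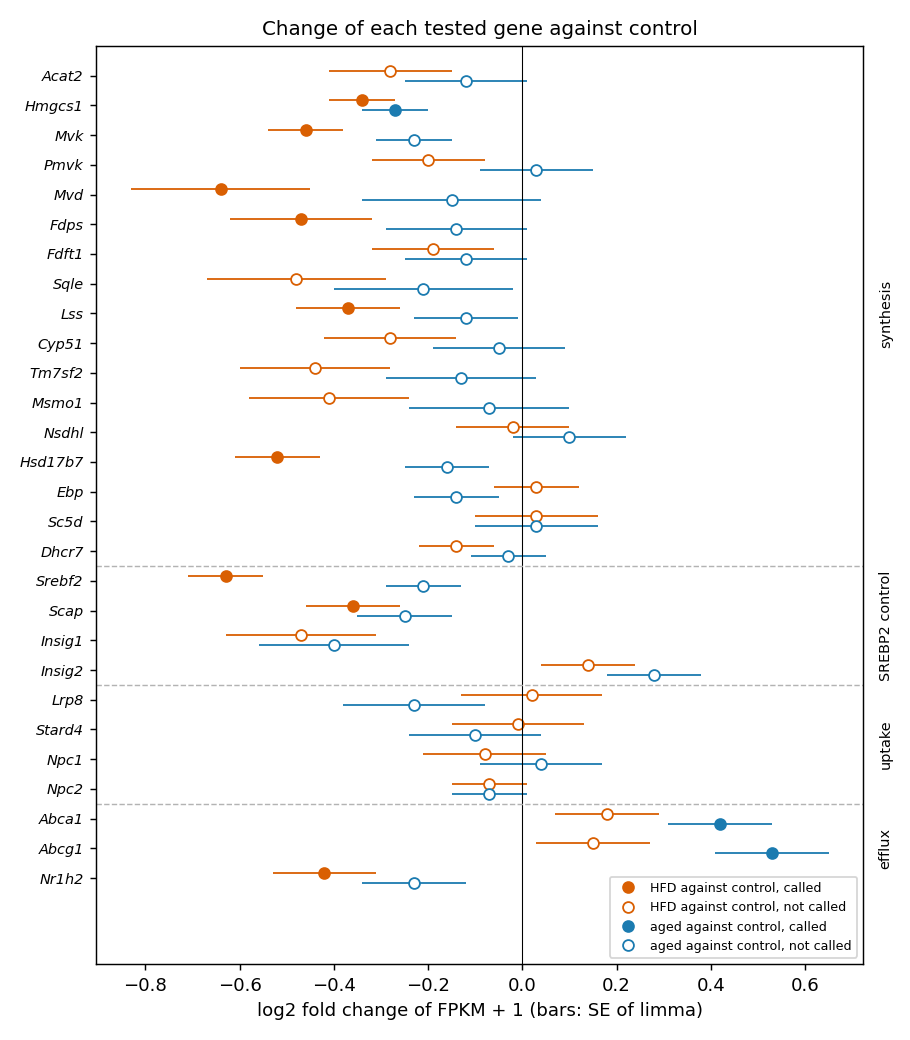
Log2 fold change of FPKM + 1 (x axis) for the 28 tested members (y axis, by role), in HFD against control (orange) and aged against control (blue), with bars of 1 SE from limma. Filled points passed an adjusted p of 0.05: 9 members in HFD, all left of 0, and 3 in aged, with Hmgcs1 left and Abca1 and Abcg1 right of 0.

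The enzymes from acetyl-CoA to isopentenyl diphosphate, the building block of all isoprenoids, held 3 of the 9 members that fell on HFD. Of 6 enzymes 5 were tested, and all 5 had a negative HFD fold change, with a median of -0.34. In aged mice 1 of the 5 fell, with a median of -0.15.

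Hmgcs1 (ENSMUSG00000093930, chr13:119690379-119708260 of GRCm38) encodes HMG-CoA synthase, which joins acetoacetyl-CoA and acetyl-CoA ahead of mevalonate. It was the most abundant member, at 88.6, 75.2 and 78.3 FPKM in replicates 1 to 3 of control, 61.9, 62.3 and 66.3 on HFD and 67.3, 68.3 and 64.0 in aged. Every HFD and aged library lay below every control library, and HFD and aged overlapped. The fall was -0.34 ± 0.07 (SE) in HFD (adjusted p = 0.0127, limma), to 78.7% of the control mean, and -0.27 ± 0.07 in aged (adjusted p = 0.0483). The HFD call held without any 1 library, but not without control replicate 1 and HFD replicate 3 together (-0.30, adjusted p = 0.0604). The aged call ended without any 1 of the 9 libraries, with adjusted p from 0.0617 without control replicate 2 to 0.124 without control replicate 1. After removal of a trend with transcript GC content within each library (the GC correction), both falls were larger, at -0.45 and -0.34 (adjusted p = 0.00335 and 0.0110).

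Mvk (ENSMUSG00000041939, chr5:114444269-114460591) encodes mevalonate kinase, the first of the phosphorylating enzymes of the pathway. Its FPKM were 14.3, 16.7 and 14.3 in control, 10.6, 11.2 and 10.3 on HFD and 12.3, 12.6 and 13.3 in aged replicates 1 to 3. The 3 groups did not overlap: HFD was lowest, aged lay between, and control was highest. The HFD fall was -0.46 ± 0.08 (adjusted p = 0.00442, limma), to 70.8% of control, and it was called in all 21 other settings tried, among them the GC correction (-0.34, adjusted p = 0.0155). The aged value of -0.23 ± 0.08 missed the threshold (adjusted p = 0.0956), as did aged against HFD at 0.23 ± 0.08 (adjusted p = 0.0977).

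Mvd (ENSMUSG00000006517, chr8:122433601-122443422), whose product removes a carboxyl group to give isopentenyl diphosphate, stood at 6.62, 4.33 and 3.58 FPKM in control, 2.38, 3.75 and 2.06 on HFD and 4.50, 3.86 and 4.14 in aged. Control and HFD overlapped, because HFD replicate 2 exceeded control replicate 3, while aged libraries lay above all HFD libraries. The HFD change was -0.64 ± 0.19 (adjusted p = 0.0397, limma), with a wide 95% interval from -1.05 to -0.23. The call was lost when control replicate 1 or 2, HFD replicate 1 or 3, or aged replicate 2 was left out (adjusted p = 0.111, 0.0791, 0.118, 0.122 and 0.0505), and with the GC correction (-0.46, adjusted p = 0.166). Between 99 and 400 reads lay behind each Mvd value, among the fewest of the tested members.

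The other enzymes of this stretch were not called in any comparison. Acat2, the thiolase that makes acetoacetyl-CoA, lay below every control library in HFD (10.8 ± 0.396 FPKM in control and 8.74 ± 0.482 in HFD, mean ± SD, n = 3), with a fold change of -0.28 ± 0.13 (adjusted p = 0.138, limma). Stretches of 50 bases shared with other genes, most often Acat3, made up 39.1% of those in Acat2 transcripts, so its reads may be divided between genes. Pmvk, phosphomevalonate kinase, was at 14.8 ± 1.62 in control, 12.8 ± 2.58 on HFD and 15.1 ± 1.18 in aged. Idi1, the isomerase of isopentenyl diphosphate, had a mean of 0.958 FPKM and fell short of the minimum of 1, so it was not tested. Its libraries ranged from 0.904 to 1.01 in control, 0.926 to 1.09 in HFD and 0.508 to 1.19 in aged, with overlap throughout.

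From isopentenyl diphosphate to lanosterol, the first sterol, 2 of 4 enzymes fell on HFD and the median fold change was -0.42. In aged mice 0 of the 4 passed limma's test (0 at an unadjusted p under 0.05), with a median of -0.13.

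Fdps (ENSMUSG00000059743, chr3:89093588-89101959), farnesyl diphosphate synthase, stands where isoprenoid and sterol synthesis part. It was at 12.4, 9.94 and 9.36 FPKM in control, 8.57, 8.16 and 5.53 on HFD and 9.59, 10.6 and 8.34 in aged. All HFD libraries were below all control libraries, HFD replicate 3 the lowest, and aged overlapped both groups. The HFD change of -0.47 ± 0.15 was at the edge of the threshold (adjusted p = 0.0498, limma), and it was called in 7 of 21 other settings. With the GC correction it stayed at -0.47 and was not called (adjusted p = 0.0602). Leaving out any library but aged replicate 3 ended the call, with adjusted p from 0.0506 without HFD replicate 1 to 0.147 without HFD replicate 3, where the value was -0.30. Reads of Fdps cannot all be assigned with certainty, since 26.19% of its 50-base stretches occur in other genes, most often the predicted gene Gm43738.

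Lss (ENSMUSG00000033105, chr10:76531588-76557138), lanosterol synthase, closes the rings of oxidosqualene. Its FPKM were 4.27, 5.33 and 4.12 in control, 3.28, 3.67 and 2.98 on HFD and 3.82, 4.48 and 4.05 in aged. HFD lay below all control and all aged libraries, and control and aged overlapped. The HFD fall was -0.37 ± 0.11 (adjusted p = 0.0364, limma) and was about as large with the GC correction (-0.40, adjusted p = 0.0332). It was not called when control replicate 1 or 2 or any of the 3 HFD libraries was left out (adjusted p = 0.0523, 0.133, 0.0921, 0.0502 and 0.112).

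Sqle, squalene epoxidase, a rate-limiting step after mevalonate, went from 7.69 ± 2.20 FPKM in control to 5.24 ± 1.52 in HFD (-0.48 ± 0.19, adjusted p = 0.102, limma), and control replicate 1 at 10.1 and HFD replicate 3 at 3.57 were its extremes. Aged Sqle was at 6.38 ± 0.428 FPKM, between the other means. Without control replicate 1 and HFD replicate 3 the HFD value was -0.08 (adjusted p = 0.707). Fdft1, squalene synthase, was at 9.39 ± 0.452 in control, 8.20 ± 1.33 on HFD and 8.68 ± 1.69 in aged, with overlap between all groups. Part of the Fdft1 exons (18.3%) lies opposite exons of Ctsb, and strand-specific counting is not stated in the sources used here.

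After lanosterol, where methyl groups are removed and double bonds moved, 1 of 8 enzymes fell on HFD, and the median fold change was -0.21. Hsd17b7 (ENSMUSG00000026675, chr1:169949535-169969241), a sterol ketoreductase of this stretch, was at 7.42, 7.52 and 6.59 FPKM in control, 5.08, 4.73 and 4.25 on HFD and 6.32, 6.88 and 5.76 in aged. HFD stood apart below both other groups, which overlapped each other. The HFD fall was -0.52 ± 0.09 (adjusted p = 0.00468, limma), to 65.3% of control, was called in all 21 other settings and was larger with the GC correction (-0.63, adjusted p = 0.00226). Hsd17b7 was higher in aged than in HFD by 0.36 ± 0.09 (adjusted p = 0.0341). That difference lost its call without HFD replicate 2 or 3 or aged replicate 1 or 2 (adjusted p = 0.0899, 0.124, 0.0839 and 0.106).

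The other 7 enzymes after lanosterol were not called in any comparison. Tm7sf2, a sterol reductase, lay at 1.13 to 2.31 FPKM in control and 0.818 to 0.897 in HFD without overlap (-0.44 ± 0.16, adjusted p = 0.0770, limma), and shares same-strand exon sequence with Vps51. Without control replicate 2 the Tm7sf2 value was -0.24 (adjusted p = 0.252). Msmo1, an oxidase in the demethylation of the sterol, was at 7.94 ± 1.35 in control and 5.78 ± 1.51 in HFD (-0.41 ± 0.17, adjusted p = 0.104). Without control replicate 1 and HFD replicate 3 the Msmo1 value was -0.12 (adjusted p = 0.594). Cyp51, the demethylase acting on lanosterol, was at 11.4 ± 2.46 in control and 9.13 ± 1.31 in HFD. In HFD the remaining 4 had values near 0: Nsdhl, a sterol dehydrogenase, at -0.02 ± 0.12; Ebp, a sterol isomerase, at 0.03 ± 0.09; Sc5d, a sterol desaturase, at 0.03 ± 0.13; and Dhcr7, a final reductase, at -0.14 ± 0.08. The 95% intervals of these 4 reached down to -0.29, -0.17, -0.25 and -0.32, and the Hmgcs1 value of -0.34 lies outside each of them. The added 1 makes an equal percent fall look smaller in these genes, which were lower than Hmgcs1. For Dhcr7, whose interval comes closest, such a percent fall is thus not excluded. With the GC correction the 4 values were -0.10, 0.04, -0.08 and -0.10. In aged mice the fold changes of these 7 enzymes lay between -0.14 for Ebp and 0.10 for Nsdhl.

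Summed over the 18 synthesis enzymes, FPKM were 255, 226 and 222 in replicates 1 to 3 of control, 189.98, 199 and 181 on HFD and 208, 222 and 199 in aged. HFD lay below every control library, and aged replicate 2 just exceeded control replicate 3. This sum is led by Hmgcs1 and was not tested.

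**Figure D2:**
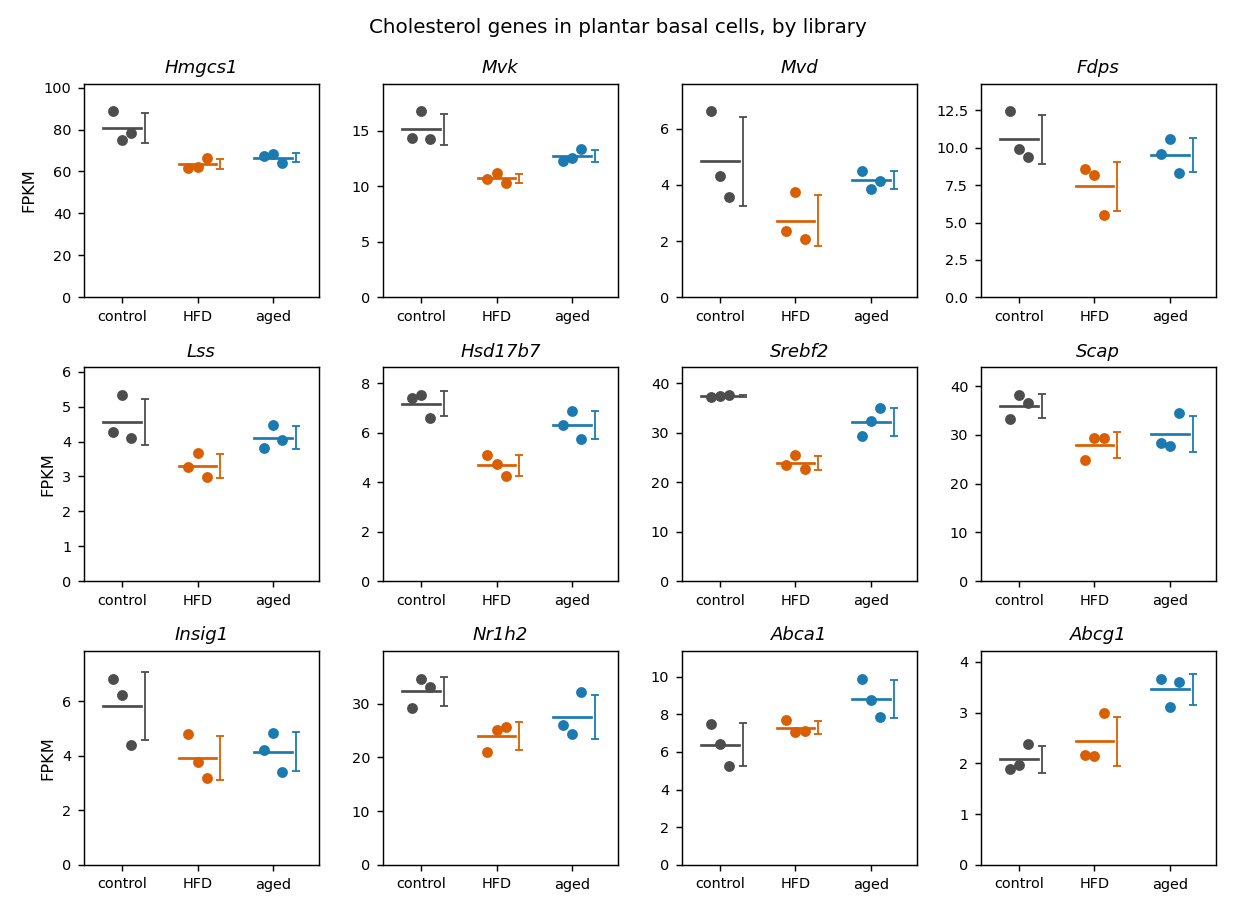
FPKM (y axis, from 0) of 12 members in each library (points) of the control, HFD and aged groups, with the mean (line) and SD (bar, n = 3). In Hmgcs1, Mvk, Fdps, Lss, Hsd17b7, Srebf2, Scap and Nr1h2 all HFD points lie below all control points, and in Abca1 and Abcg1 all aged points lie above all control points.

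Among the 4 genes of SREBP2 control, Srebf2 and Scap fell on HFD, and Srebf2 had the smallest adjusted p of all members. Srebf2 (ENSMUSG00000022463, chr15:82147181-82205379) encodes SREBP2 itself. Its control libraries were nearly level at 37.3, 37.4 and 37.6 FPKM, against 23.4, 25.5 and 22.7 on HFD and 29.3, 32.4 and 35.0 in aged. The 3 groups did not overlap, and aged lay between HFD and control. The HFD fall was -0.63 ± 0.08 (adjusted p = 0.00135, limma), to 63.8% of control, with a 95% interval of -0.80 to -0.46, and it was called in all 21 other settings. With the GC correction it was -0.47 (adjusted p = 0.00304). Srebf2 was higher in aged than in HFD by 0.42 ± 0.08 (adjusted p = 0.00892), again in all 21 settings. Against control, aged Srebf2 was at -0.21 ± 0.08 and was not called (adjusted p = 0.109), but without aged replicate 3 it was called at -0.27 (adjusted p = 0.0432). With the GC correction added to that it was -0.15 and not called (adjusted p = 0.240).

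Scap (ENSMUSG00000032485, chr9:110333288-110384950), the sterol-sensing escort of SREBP2, was at 33.2, 38.1 and 36.6 FPKM in control, 24.8, 29.4 and 29.3 on HFD and 28.4, 27.8 and 34.5 in aged. HFD lay below all control libraries, and aged replicate 3 reached into the control range while the other 2 aged libraries did not. The HFD fall was -0.36 ± 0.10 (adjusted p = 0.0303, limma). With the GC correction it was -0.18 and not called (adjusted p = 0.115), as without control replicate 2 or 3 or without HFD replicate 1, 2 or 3 (adjusted p = 0.106, 0.0784, 0.111, 0.0542 and 0.0521). In aged, Scap was at -0.25 ± 0.10 (adjusted p = 0.143), and at -0.34 (adjusted p = 0.0378) without aged replicate 3.

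Insig1, a SREBP2 target whose product retains SCAP, was at 6.81, 6.25 and 4.41 FPKM in control, 4.80, 3.78 and 3.19 on HFD and 4.22, 4.83 and 3.41 in aged. Control replicate 3 overlapped both other groups. Neither -0.47 ± 0.16 in HFD (adjusted p = 0.0659, limma) nor -0.40 ± 0.16 in aged (adjusted p = 0.144) passed the test. Insig2, its relative, was at 12.01 ± 1.38 in control, 13.3 ± 0.838 on HFD and 14.8 ± 1.80 in aged, with an aged fold change of 0.28 ± 0.10 (adjusted p = 0.116).

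Genes of uptake and delivery did not pass the test in any comparison (0 of 4 called by limma and 0 at an unadjusted p under 0.05 in each of the 3). Lrp8, a lipoprotein receptor, was the lowest tested member, at 1.12 ± 0.104 FPKM in control, 1.17 ± 0.373 on HFD and 0.826 ± 0.290 in aged. Stard4, a carrier of sterol between membranes, was at 4.11 ± 0.787, 4.07 ± 0.696 and 3.75 ± 0.552. Npc1 and Npc2 move cholesterol out of the lysosome. Npc1 was at 4.14 ± 0.102 in control, 3.86 ± 0.170 on HFD and 4.37 ± 1.07 in aged, and Npc2 at 25.3 ± 2.45, 24.0 ± 0.155 and 24.0 ± 1.25. In HFD their fold changes lay between -0.08 and 0.02, with 95% intervals of -0.31 to 0.36 for Lrp8, -0.32 to 0.30 for Stard4, -0.36 to 0.20 for Npc1 and -0.24 to 0.10 for Npc2. The Hmgcs1 value of -0.34 lies outside the intervals of Lrp8, Stard4 and Npc2 but inside that of Npc1. The added 1 makes an equal percent fall look smaller in low genes. For Lrp8 and Stard4 the intervals thus do not exclude a percent fall as large as that of Hmgcs1.

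The exporters were the members that rose in aged mice. Abcg1 (ENSMUSG00000024030, chr17:31057675-31117988), which loads cholesterol onto high-density lipoprotein, was at 1.90, 1.96 and 2.38 FPKM in control, 2.17, 2.15 and 2.99 on HFD and 3.66, 3.11 and 3.60 in aged. Aged libraries lay above all others, and control and HFD overlapped. The rise against control was 0.53 ± 0.12 (adjusted p = 0.0219, limma), to 166% of the control mean, and 0.55 with the GC correction (adjusted p = 0.0184). It was not called without control replicate 1 or 2 or aged replicate 1 (adjusted p = 0.0550, 0.0719 and 0.0780). Against HFD, aged Abcg1 was at 0.38 ± 0.12 (adjusted p = 0.0714), and was called without HFD replicate 3 (0.49, adjusted p = 0.0423).

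Abca1 (ENSMUSG00000015243, chr4:53030787-53159895), which passes cholesterol to lipid-poor apolipoproteins, was at 7.503, 6.41 and 5.24 FPKM in control, 7.68, 7.07 and 7.12 on HFD and 9.87, 8.74 and 7.88 in aged. Aged libraries again lay above all control and HFD libraries. The rise against control was 0.42 ± 0.11 (adjusted p = 0.0467, limma), to 138% of control. It was not called with the GC correction (0.39, adjusted p = 0.0509). Leaving out a library kept the call only for control replicate 1 or aged replicate 3, and otherwise gave adjusted p from 0.0604 without HFD replicate 1 to 0.158 without aged replicate 1. In HFD neither exporter was called, Abca1 at 0.18 ± 0.11 (adjusted p = 0.296) and Abcg1 at 0.15 ± 0.12 (adjusted p = 0.388).

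Nr1h2 (ENSMUSG00000060601, chr7:44549616-44553951) encodes liver X receptor beta, which activates both exporter genes. It was at 29.2, 34.6 and 33.1 FPKM in control, 21.1, 25.2 and 25.8 on HFD and 26.0, 24.5 and 32.1 in aged. HFD lay below all control libraries, and aged overlapped both groups. The HFD fall was -0.42 ± 0.11 (adjusted p = 0.0273, limma). It was -0.20 and not called with the GC correction (adjusted p = 0.101), and was not called without control replicate 2 or 3 or without HFD replicate 1 or 2 (adjusted p = 0.0969, 0.0743, 0.101 and 0.0545). Nr1h2 in aged was at -0.23 ± 0.11 (adjusted p = 0.220), opposite in sign to Abca1 and Abcg1.

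Soat1, which esterifies cholesterol for storage, had a mean of 0.366 FPKM and was not tested. Its libraries were at 0.446, 0.343 and 0.0393 FPKM in control, 0.296, 0.237 and 0.166 on HFD and 0.385, 0.723 and 0.656 in aged. Control replicate 3 rests on an estimated 12 reads and aged replicate 2 on 225. Aged libraries lay above all HFD libraries but overlapped control, where replicate 1 exceeded aged replicate 1.

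GC content of the transcript moved with the fold changes, so each result was also computed after removing that trend within each library. Over the tested genes, Spearman's rho between GC content and fold change was -0.46 in HFD against control, -0.33 in aged against control and 0.22 in aged against HFD, as a description across genes that share libraries. Genes of the lowest of 8 GC bins had a median HFD fold change of 0.15 and those of the highest, from 57.2% GC, -0.21. Nr1h2 at 60.6% GC, Scap at 59.1%, Mvd at 59.0% and Srebf2 at 57.9% lie in that highest bin, and Mvk at 56.3% is close to it. Hmgcs1 and Hsd17b7, at 43.1% and 43.9%, lie at the other end. After the correction 5 members were called lower in HFD (Srebf2, Hsd17b7, Mvk, Hmgcs1 and Lss) beside 5.35% of all tested genes, with a median over the 28 of -0.19 beside 0.00 over all genes. In aged against control 1 was called higher (Abcg1) and 1 lower (Hmgcs1), beside 4.01% and 3.45% of all tested genes, which is close to background. In aged against HFD both called genes held, beside 3.26% of all tested genes called higher. The part of GC content in the deposited differences was not tested further.

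**Figure D3:**
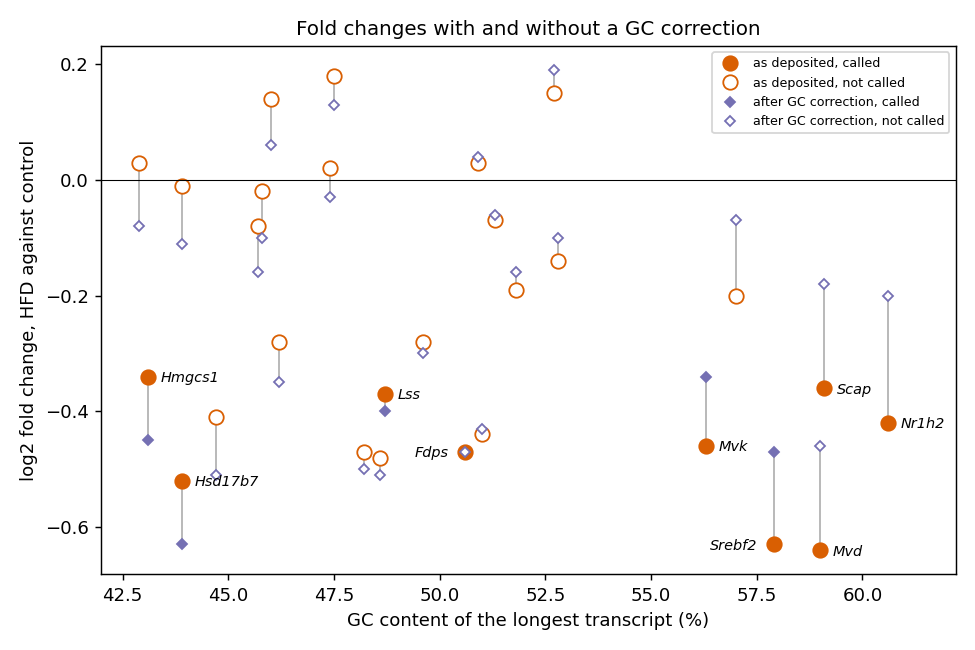
HFD against control log2 fold change (y axis) of the 28 tested members against the GC content of their longest transcript (x axis, %), as deposited (circles) and after the GC correction (diamonds), joined by lines. Filled symbols passed an adjusted p of 0.05: Scap, Nr1h2 and Mvd, near 59% to 61% GC, move toward 0 and lose the call, whereas Hmgcs1 and Hsd17b7 move away from 0. Fdps, at 50.6% GC, also loses the call, with its value unchanged at -0.47.

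Single libraries stood out within groups across the synthesis enzymes. Control replicate 1 was the highest control library for 9 of the 17 tested enzymes and the lowest for 0, and control replicate 3 was the lowest for 12. HFD replicate 3 was the lowest HFD library for 12 of the 17, and aged replicate 3 the lowest aged library for 9, so the libraries numbered 3 were most often the lowest in all 3 groups. Aged replicate 2 was the highest aged library for 11. The median within-group SD over the 28 members was 0.18 on the log2 scale, beside 0.12 over all tested genes. Without control replicate 1 and HFD replicate 3 together, a check added after seeing these values, 4 members were called lower in HFD (Srebf2, Mvk, Hsd17b7 and Nr1h2), beside 3.79% of all tested genes, and the median over the 28 was -0.09.

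**Figure D4:**
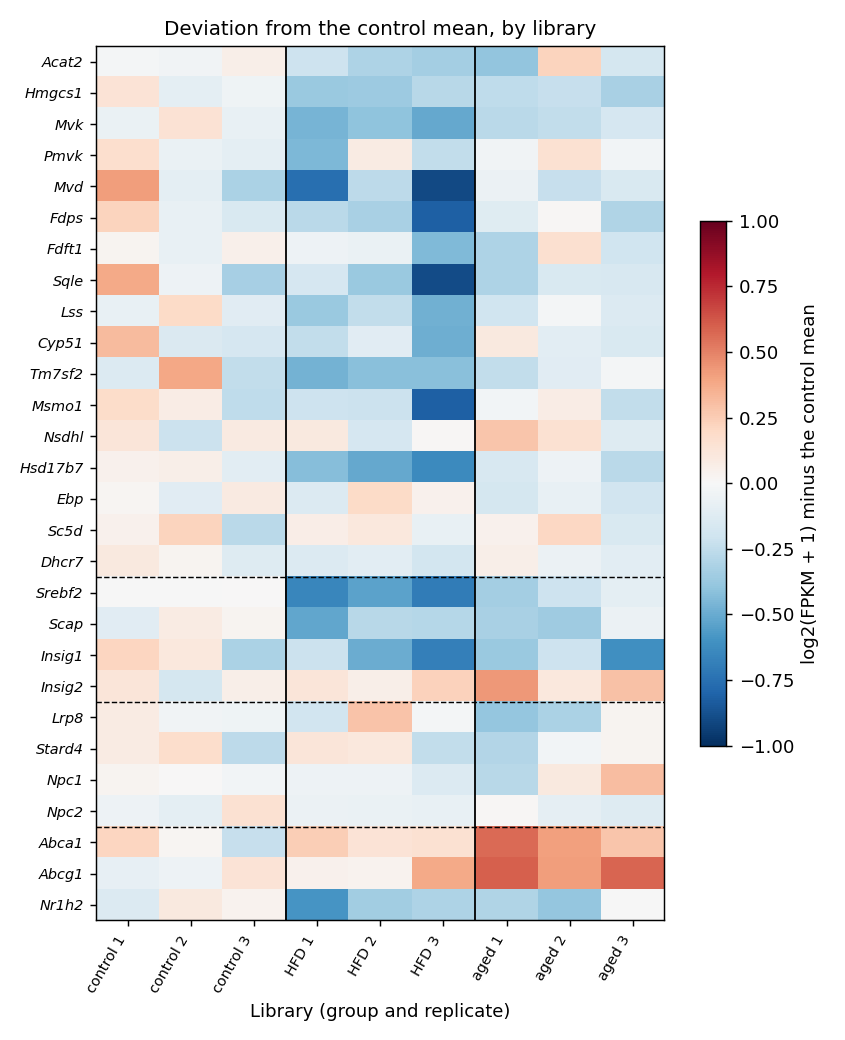
Deviation of log2(FPKM + 1) from the control mean (colour, from -1 in blue to 1 in red) for the 28 tested members (rows, by role) in each of the 9 libraries (columns). HFD columns are mostly blue in the synthesis and SREBP2 control rows, with HFD replicate 3 the deepest. In the rows of Abca1 and Abcg1 the aged cells are the reddest of each row, and some HFD and control cells are also red.

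Further genes of the pathway were read from 6 lists with 54 tested genes. In HFD 6 of these fell and 1 rose (11.1% and 1.85%), beside 8.76% and 8.26% of all tested genes, so the share that fell is close to background. After the GC correction 2 fell and 1 rose, beside 5.35% and 5.85% of all tested genes. Slc25a1, the mitochondrial carrier that exports citrate for acetyl-CoA, was at 29.8, 31.3 and 31.8 FPKM in control, 17.4, 21.2 and 17.4 on HFD and 24.7, 25.8 and 29.1 in aged. Like Srebf2, it had 3 groups without overlap, with HFD lowest, at -0.71 ± 0.09 in HFD (adjusted p = 0.00147, limma) and 0.49 ± 0.09 in aged against HFD (adjusted p = 0.00867). Srebf1, the sister factor that drives fatty acid synthesis, was at 46.5, 58.1 and 60.9 in control, 33.7, 35.1 and 39.4 on HFD and 56.3, 48.2 and 58.8 in aged. HFD lay below both other groups, which overlapped, with -0.59 ± 0.11 in HFD (adjusted p = 0.00591) and 0.58 ± 0.11 in aged against HFD (adjusted p = 0.00970). These calls of Slc25a1 and Srebf1 held in all 21 other settings.

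Other genes of these lists changed less steadily. In HFD, Tmem97, a sterol-responsive protein that binds NPC1, fell by 0.60 ± 0.18 on the log2 scale (adjusted p = 0.0443, limma). Of its 50-base stretches, 20.81% occur in other genes, most often Gm5809. Aup1, which takes part in sterol-regulated degradation, was at -0.25 ± 0.07 (adjusted p = 0.0378) and near 0 (-0.06, adjusted p = 0.575) after the GC correction. Lima1, linked to cholesterol absorption in the gut, was the gene that rose, at 0.29 ± 0.09 (adjusted p = 0.0459). The transporters Abca7 and Abca2, the latter named after its values were seen, fell by 0.39 ± 0.10 and 0.34 ± 0.10 (adjusted p = 0.0228 and 0.0445). Tmem97 was not called without any 1 control or HFD library (adjusted p = 0.0654 to 0.149), and Aup1 not without control replicate 2 or 3 or any HFD library (0.0629 to 0.130). Lima1 was not called without control replicate 1 or 2, HFD replicate 1 or 3, or aged replicate 1 or 2 (adjusted p = 0.0558 to 0.158), and Abca7 not without control replicate 2 or HFD replicate 1 or 2 (0.0655 to 0.0880). Abca2 was not called without control replicate 2 or 3 or any HFD library (adjusted p = 0.0626 to 0.147). After the GC correction Tmem97, Abca7 and Abca2 were not called (adjusted p = 0.0674, 0.0977 and 0.169).

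In aged mice Abca7 fell by 0.39 ± 0.10 (adjusted p = 0.0365, limma), as 1 of the 54 (1.85%, background 3.74%), and 0 rose (background 4.01%). At an unadjusted p under 0.05 there were 3 higher and 6 lower, beside 1260 higher and 1414 lower of the 10367 tested genes. The Abca7 call was lost when control replicate 2 or 3, HFD replicate 2, or aged replicate 1 or 2 was left out (adjusted p = 0.124, 0.0842, 0.0555, 0.126 and 0.105). Against HFD, 3 of the 54 were higher in aged and 1 lower (5.56% and 1.85%, background 3.54% and 4.45%). Apart from Slc25a1 and Srebf1, these were 2 oxysterol enzymes. Cyp27a1, which makes an oxysterol ligand of the liver X receptors, was higher in aged by 0.60 ± 0.15 (adjusted p = 0.0375). Cyp7b1, which breaks oxysterols down, was lower, at -0.69 ± 0.15 (adjusted p = 0.0188). Cyp27a1 was not called without HFD replicate 1 or 3 or any aged library (adjusted p = 0.0697 to 0.130), nor Cyp7b1 without HFD replicate 2 or 3 or aged replicate 3 (adjusted p = 0.0562, 0.0701 and 0.0523).

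The isoprenoid branch, which takes farnesyl diphosphate to protein prenylation, dolichol and ubiquinone, had 0 of 14 genes called by limma in each of the 3 comparisons (4, 2 and 2 at an unadjusted p under 0.05). Among them, Coq2, of ubiquinone synthesis, was at -0.21 ± 0.07 in HFD (adjusted p = 0.0762), and Pggt1b, a prenyltransferase subunit, was at 0.21 ± 0.07 in aged (adjusted p = 0.0993). The 4 tested genes of cholesterol sulfate and barrier lipids were also not called (0, 0 and 1 at an unadjusted p under 0.05). Among them, Sult2b1, the cholesterol sulfotransferase of skin, was at 0.11 ± 0.18 in HFD and 0.35 ± 0.18 in aged (adjusted p = 0.713 and 0.249).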

How the data were processed

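RNA of the 9 libraries was prepared with a stranded mRNA kit and sequenced on an Illumina instrument, per the labels' protocols. The authors deposited 1 table of FPKM values, with 1 column per library. Per the submitters' processing notes, the mm10 genome, the aligner STAR 2.6.0c, cutadapt, the counter HTSeq 0.11.2 and also DESeq2 1.30.0 were used; which tool made the FPKM, and whether strand was counted, is not given in the sources used here.

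The analysis took log2(FPKM + 1) into limma 3.58.1 (R 4.3.3; 1 mean per group, eBayes with a trend, two-sided) in all 9 libraries, for 10367 genes averaging 1 FPKM or more, with Benjamini-Hochberg adjustment over all of them. For the GC correction, each library's deviations from the gene means were smoothed on GC content of the longest GENCODE M21 transcript (GRCm38; loess, span 0.5, degree 1) and the curve was taken off. Depth was estimated from the size of 1 read among low genes: 97.5% to 98.2% of values up to 30 reads were whole within 0.02. At the mean reads of a member over the 9 libraries, counting error alone would be 1.0% to 9.9% of the level. The spread between libraries thus limits most comparisons. Counting error is larger for single low values, such as Soat1 in control replicate 3 at an estimated 12 reads. The fit was tested on simulated data.

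Members and gene lists were chosen with earlier results of these data known. Called and untested members were named, and up to 3 genes of each further list with the smallest F test p. Alternatives were a pseudocount of 0.1, no filter, a minimum of 5 FPKM, quantile and total-FPKM scaling, library weights, robust fitting, a replicate block, the GC correction, only the 6 libraries compared, and each library left out. Results for some genes of the pathway are not reported here.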

Additional observations from a re-analysis of the deposited data

How the results depend on the processing

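Over 37 pairs of a named gene and a comparison, 768 values were recomputed: 601 kept direction and side of the threshold, 149 kept direction but lost the call, 18 gained it and 0 changed sign. In HFD against control, 9 members were called lower; this was 4 with no filter on low values, 5 with the GC correction and 4 without control replicate 1 and HFD replicate 3 together, and 4 to 9 without any 1 library. The 4 came without control replicate 2 or HFD replicate 1, when 3.51% and 4.10% of all genes were called lower. Scaling to total FPKM left 9 members lower while all genes moved from 856 higher and 908 lower to 597 and 1165.

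In aged against control, members called higher (2) were 0 with no filter, 1 with a minimum of 5 FPKM, total-FPKM scaling, the GC correction or only 6 libraries, and 0 to 2 without any 1 library. Members called lower (1) were 0 with no filter, quantile scaling, library weights or only 6 libraries, and 0 to 2 without any 1 library; at an unadjusted p under 0.05 and with no filter, 4 were higher and 4 lower. In aged against HFD, members called higher (2) were 1 with no filter or only 6 libraries, and 1 to 2 without any 1 library. By the F test (5), 8 members were called with library weights, 8 with robust fitting, 8 without aged replicate 3, and 4 to 8 without any 1 library. The cause was not tested, except that no filter brings in more genes to adjust for and other settings hold fewer samples.

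Replicate numbers were not taken as pairing: correlations of deviations between same-numbered libraries ran from -0.05 to 0.27, and 5 of 9 libraries correlated best with their own number. With the number as a replicate block, 12 members were lower in HFD (Sqle, Msmo1 and Insig1 added), beside 10.4% of all tested genes. In aged against control 3 were higher (Insig2 added) and 2 lower (Insig1 added), beside 5.37% and 5.59%. In aged against HFD 4 were higher (Msmo1 and Abcg1 added), beside 4.49%, and the F test called 13. These shares of all tested genes were larger than without the block. With the block and the GC correction together the member counts were 8, 2 and 2, 3, and 10, in the same order. The shares of all tested genes were then 5.77%, 4.51% and 3.90%, and 3.87%, the F test aside.

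Soat1 and Idi1 rest on 12 to 225 and 59 to 136 reads per library, and were not tested.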
